A study of Homo sapiens with 6 samples.

Results

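The glucocorticoid receptor NR3C1, the chaperone partners FKBP4 and FKBP5 and the glucocorticoid-induced genes TSC22D3, PER1, KLF9 and SGK1 were followed in the human multiple myeloma line MM.1S. The 7 genes were picked by symbol, with earlier results of these data known, and all 7 were found among the 56637 symbols of the count tables. Each had enough counts to enter the test, as did 13839 genes in all. FKBP5 counts both as a partner of the receptor and as one of its induced genes.

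The cells had been transduced by lentivirus with an shRNA against KDM6B, a histone H3 lysine demethylase, or against luciferase as the control, and both arms were selected with puromycin. They grew in RPMI-1640 with fetal bovine serum, and the labels name no glucocorticoid treatment in either arm. RNA sequencing gave 3 libraries per arm, called shLuc and shKDM6B libraries, and the comparison asks which genes differ between the arms. Values per library stand in the order of the replicate numbers, 1 to 3. The labels do not say that the replicates were kept as separate cultures, so each p-value below reflects variation among libraries that may be technical. Effects of KDM6B loss and other effects of the hairpin cannot be told apart in this design. In RNA from bulk cells, fewer cells expressing a gene and less RNA per cell cannot be told apart either.

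In the absence of hormone the glucocorticoid receptor is held in the cytoplasm by HSP90 together with co-chaperones and immunophilins such as FKBP4 and FKBP5. On binding cortisol or a drug such as dexamethasone it moves to the nucleus, where it binds DNA and raises or lowers the transcription of its target genes. FKBP5 lowers the receptor's affinity for hormone and is itself induced, which makes a negative feedback loop, whereas FKBP4 favours movement to the nucleus. Glucocorticoids kill lymphoid cells and are part of myeloma treatment, and MM.1S is known as a glucocorticoid-sensitive line.

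The start-site windows of the members are shown for the letters that the receptor and a pair of other factors are known to bind. RefSeq (build GRCh38.p14) gave 18 windows for 6 of the 7 members, each running from 250 bases before to 50 bases after a listed start. All members shown lie on the minus strand, and the sequences read 5′ to 3′ along the gene. The 4 motifs below were searched on both strands: the full receptor element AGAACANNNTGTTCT, its arm AGAACA, the cAMP response element TGACGTCA and the E-box CACGTG bound by the clock factors CLOCK and ARNTL. The arm AGAACA is part of the full element, so a full match would count under both. Capitals mark every match. The windows below belong to 4 of the 5 members whose RNA rose, and were chosen because they hold a match or, for TSC22D3, because its RNA rose most. They are the PER1 window at chr17:8152355-8152654, an SGK1 window at chr6:134177812-134178111, an FKBP5 window at chr6:35728534-35728833 and the most downstream TSC22D3 window at chrX:107716459-107716758.
PER1: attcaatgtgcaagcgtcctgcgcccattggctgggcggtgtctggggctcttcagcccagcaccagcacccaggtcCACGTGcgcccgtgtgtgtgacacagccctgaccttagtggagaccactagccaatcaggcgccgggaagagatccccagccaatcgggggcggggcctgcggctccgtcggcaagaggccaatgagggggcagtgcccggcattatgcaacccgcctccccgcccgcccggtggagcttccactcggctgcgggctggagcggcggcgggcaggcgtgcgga
SGK1: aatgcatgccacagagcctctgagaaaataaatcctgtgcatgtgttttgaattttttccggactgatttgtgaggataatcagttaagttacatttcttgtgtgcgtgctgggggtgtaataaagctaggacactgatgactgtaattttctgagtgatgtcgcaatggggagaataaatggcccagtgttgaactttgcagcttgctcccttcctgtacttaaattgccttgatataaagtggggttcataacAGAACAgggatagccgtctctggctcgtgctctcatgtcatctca
FKBP5: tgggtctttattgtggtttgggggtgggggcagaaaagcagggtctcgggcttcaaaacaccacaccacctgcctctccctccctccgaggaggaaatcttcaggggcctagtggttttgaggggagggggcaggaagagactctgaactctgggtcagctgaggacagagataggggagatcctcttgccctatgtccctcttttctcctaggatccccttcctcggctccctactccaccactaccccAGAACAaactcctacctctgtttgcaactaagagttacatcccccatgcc
TSC22D3: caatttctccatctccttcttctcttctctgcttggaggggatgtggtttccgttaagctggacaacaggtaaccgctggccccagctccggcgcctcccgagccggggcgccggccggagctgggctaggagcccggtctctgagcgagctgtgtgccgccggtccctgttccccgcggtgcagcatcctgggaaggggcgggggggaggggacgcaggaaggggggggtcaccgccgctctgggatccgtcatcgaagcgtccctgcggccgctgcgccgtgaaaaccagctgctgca

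The PER1 window held an E-box whose first base lies 173 bases before the start (position -173). The arm AGAACA began at base 6 after the start in this SGK1 window, which is 1 of 3 for that gene, and at base 1 in this FKBP5 window, which is 1 of 2. The other FKBP5 window held an E-box at position -227. The remaining windows, among them all 7 of NR3C1, all 4 of TSC22D3 and the 1 of KLF9, held none of the 4 motifs. Over all 35116 windows of this length, AGAACA was found in 14.8%, CACGTG in 7.26%, TGACGTCA in 1.85% and the full receptor element in 1 window. Among the members, 2 of 18 windows held AGAACA, 2 held CACGTG and 0 held either of the others. A match is a match of letters only. The full receptor element was so rare over all windows that its absence from the members' 18 tells nothing about them. Elements that depart from these letters were not searched for, and receptor elements of these genes may lie outside the windows.

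KDM6B itself stood at 53.8 ± 4.9 CPM in shLuc and 32.6 ± 2.4 CPM in shKDM6B (SD, n = 3 each, with a log2 fold change of -0.71, SE 0.073 and an edgeR adjusted p = 7.72e-08). CPM is the count relative to the library total after TMM scaling, which evens out the make-up of the libraries. Totals ran from 7338393 to 8996159 counts in shLuc and from 7952156 to 9848351 in shKDM6B. All 12 plasma cell markers had counts, with a summed level of 3110 to 3415 CPM in shLuc and 2914 to 3281 CPM in shKDM6B. Of the 11 tested, 1 rose and 4 fell, while 20.1% of all genes tested rose and 18.9% fell. Some had few counts: CD27 had 7, 5 and 4 in shLuc and 1, 2 and 8 in shKDM6B. FCRL5 had 48, 59 and 47 in shLuc and 7, 7 and 3 in shKDM6B. Of 10 epithelial markers 5 were tested, 3 of them higher and 1 lower, and KRT1 was at 0 in every library. Their summed level was 53.9 to 65.2 CPM in shLuc and 44.4 to 91.9 CPM in shKDM6B. A large part of that sum was KRT10, with 390, 469 and 462 counts in shLuc and 393, 401 and 423 in shKDM6B. Other keratins were far less even between libraries. The keratin KRT5 had 28, 4 and 0 counts in the shLuc libraries and 53, 110 and 0 in the shKDM6B libraries.

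In all, 5 of the 7 members were higher in shKDM6B at an adjusted p under 0.05: TSC22D3, SGK1, PER1, KLF9 and FKBP5. NR3C1 and FKBP4 did not pass. By edgeR 0 members were lower, at the adjusted and at the unadjusted threshold, and DESeq2 gave 5 higher and 0 lower as well. At an unadjusted p under 0.05 all 7 were higher, as were 23.8% of all genes tested. Among all genes tested 39.1% passed in either direction and 20.1% passed as higher. The median log2 fold change was 0.29 over the 7 members and -0.0053 over all genes tested. The 3 shKDM6B values lay wholly above the 3 shLuc values for 6 members, all but FKBP4, against 24.5% of all genes tested. As the members were chosen with earlier results of these data known, these comparisons with all genes are a description only.

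**Figure D1:**
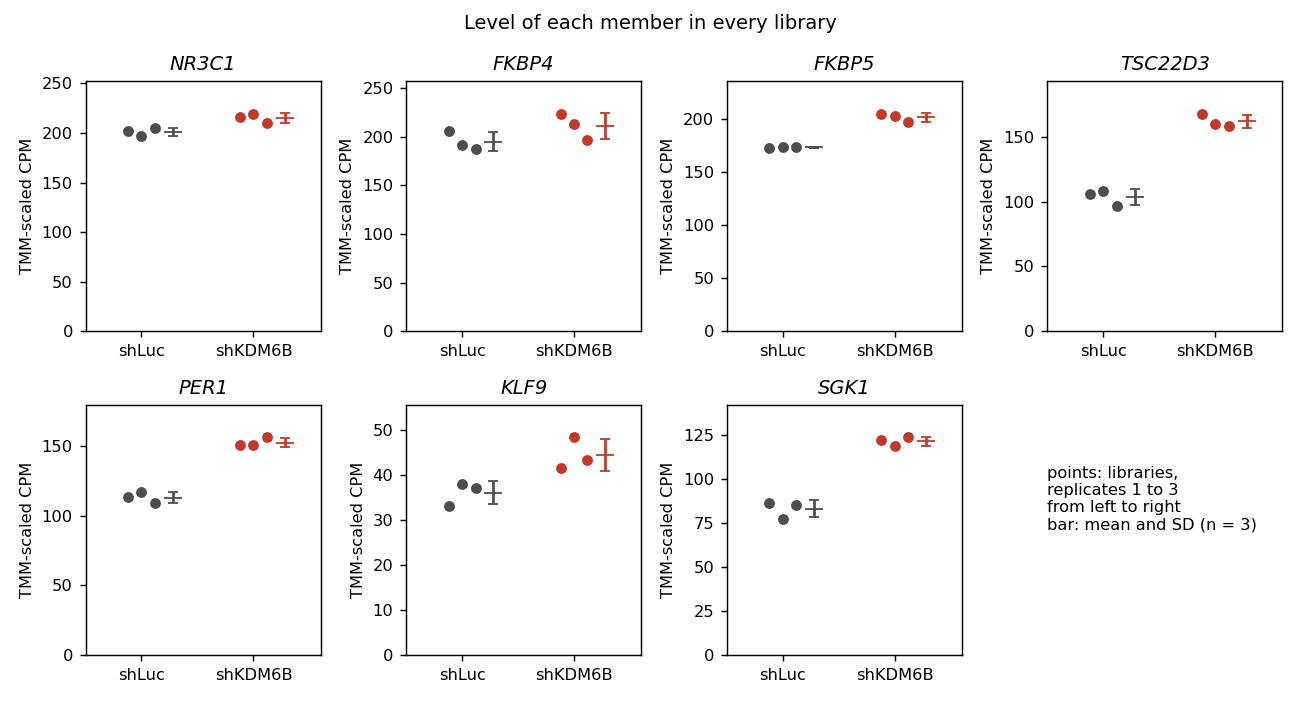
TMM-scaled CPM of each member in every library (points, replicates 1 to 3 from left to right) with the mean and SD of each group (n = 3), on axes that start at 0. The shKDM6B points of TSC22D3 (159 to 168 CPM), SGK1 (119 to 124 CPM) and PER1 (150 to 156 CPM) sit well above the shLuc points, and those of FKBP4 overlap.

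NR3C1 encodes the receptor and lies on chromosome 5. Its level was 202, 197 and 205 CPM in the shLuc libraries and 216, 220 and 210 CPM in the shKDM6B libraries. Every shKDM6B library was above every shLuc library, by a narrow margin between the highest shLuc and the lowest shKDM6B value. The means were 201.1 ± 4.2 and 215.3 ± 4.9 CPM (SD, n = 3 each), a log2 fold change of 0.097 (SE 0.042, 95% interval 0.0097 to 0.19) with an adjusted p of 0.0730. The receptor thus missed the threshold. Without shKDM6B replicate 3, the deepest library, the adjusted p was 0.0488, while over the other libraries left out in turn it ran from 0.113 to 0.284. With scaling taken from read-poor genes (under 0.03 counts per base of exon) the log2 fold change was 0.15 (SE 0.076, adjusted p = 0.122).

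FKBP4, on chromosome 12, encodes the immunophilin FKBP52, a peptidyl-prolyl isomerase that joins HSP90 in the mature receptor complex. It stood at 206, 192 and 188 CPM in the shLuc libraries and at 224, 213 and 197 CPM in the shKDM6B libraries. Replicate 3 of shKDM6B lay below replicate 1 of shLuc, so the groups overlapped. In both groups the level fell from replicate 1 to replicate 3, and at each replicate number the shKDM6B value was the higher. The log2 fold change was 0.11 (SE 0.050, 95% interval 0.010 to 0.22, adjusted p = 0.0760). It passed when shLuc replicate 1 was left out (0.15, adjusted p = 0.0240) and when shKDM6B replicate 3 was (0.17, adjusted p = 0.0113). With the replicate number as a further term in the edgeR test it passed too (0.11, adjusted p = 0.0062), though pairing by number is not settled. Leaving out shKDM6B replicate 1 gave 0.073 (adjusted p = 0.309). Without the 3 libraries richest in keratin counts the log2 fold change was 0.056. That fit kept only replicate 3 of shKDM6B, whose FKBP4 level was the lowest of its group. Antisense genes share exon sequence with FKBP4 in GENCODE 29, and the library kit, as far as its name shows, does not mark strand.

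FKBP5, on chromosome 6, encodes FKBP51, the related immunophilin that holds the receptor in a state of low hormone affinity. Its level was 172, 173 and 173 CPM in the shLuc libraries and 205, 203 and 197 CPM in the shKDM6B libraries. The shLuc values were nearly identical, and all 3 shKDM6B values lay above them. The rise was 16.3%, a log2 fold change of 0.22 (SE 0.041, 95% interval 0.13 to 0.30, adjusted p = 0.000196). The change of FKBP5 was small in size but passed in all 18 alternative settings, with log2 fold changes of 0.18 to 0.27.

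TSC22D3, on the X chromosome, encodes the glucocorticoid-induced leucine zipper protein GILZ, which carries part of the anti-inflammatory action of glucocorticoids. It stood at 106, 108 and 96.6 CPM in the shLuc libraries and at 168, 160 and 159 CPM in the shKDM6B libraries. The groups were far apart, and the lowest shKDM6B library exceeded the highest shLuc library by more than either group's SD. The rise was 56.7%, from 103.5 ± 6.1 to 162.2 ± 5.1 CPM (SD, n = 3 each, with a log2 fold change of 0.65, SE 0.048 and adjusted p = 4.43e-10). This was the largest change among the members, and 3.65% of all genes tested had a higher log2 fold change. NCBP2L, on the opposite strand, shares exon sequence with it in GENCODE 29.

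SGK1, on chromosome 6, encodes a serum- and glucocorticoid-induced kinase that regulates ion channels and cell survival. Its level was 86.6, 77.6 and 85.2 CPM in the shLuc libraries and 123, 119 and 124 CPM in the shKDM6B libraries. The groups did not overlap, and the 3 shKDM6B values were tightly spaced. The rise was 46.8% (log2 fold change 0.55, SE 0.048, 95% interval 0.45 to 0.65, adjusted p = 5.22e-09). SGK1 is also known to respond to serum, osmotic stress and growth factors.

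PER1, on chromosome 17, encodes a repressor of the circadian clock that glucocorticoids induce rapidly. It was at 113, 117 and 109 CPM in the shLuc libraries and at 150, 151 and 156 CPM in the shKDM6B libraries. Every shKDM6B value lay above every shLuc value. The rise was 35.1% (log2 fold change 0.43, SE 0.044, 95% interval 0.34 to 0.53, adjusted p = 5.21e-08). A protein-coding gene on the same strand and a microRNA share exon sequence with PER1 in GENCODE 29, which was not used for counting. How reads from such shared sequence were counted is not known.

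KLF9, on chromosome 9, encodes a zinc-finger transcription factor that glucocorticoids induce in many tissues and that acts mostly as a repressor. It had the lowest level per length of the members, and stood at 33.1, 37.9 and 37.1 CPM in the shLuc libraries and 41.6, 48.4 and 43.3 CPM in the shKDM6B libraries. The groups lay close together without overlapping. The rise was 22.7% (log2 fold change 0.29, SE 0.071, 95% interval 0.15 to 0.44, adjusted p = 0.00208). Without shLuc replicate 1 and shKDM6B replicates 1 and 2, the libraries richest in keratin counts, the log2 fold change was 0.21 and did not pass (adjusted p = 0.122), where the 1 remaining shKDM6B library was taken to vary as the shLuc libraries do. KLF9 is also expressed in skin, and the part of epithelial RNA in its rise was not tested.

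**Figure D2:**
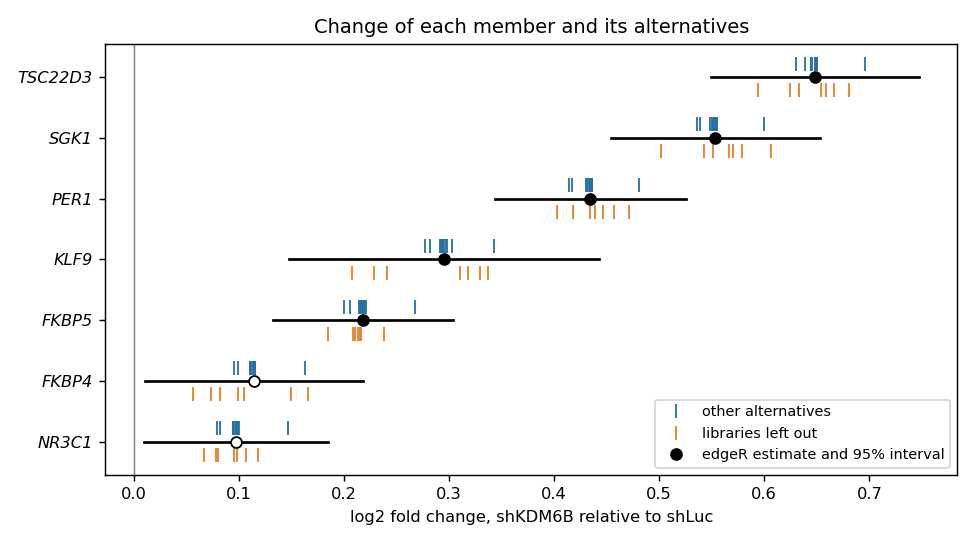
The log2 fold change of each member (circle, filled where the adjusted p was under 0.05) with its 95% interval (line), and its value with libraries left out (orange ticks) or under other scaling, filters and tests (blue ticks). TSC22D3 is highest at 0.65 and NR3C1 lowest at 0.097, and all ticks lie above 0.

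The sizes of the changes formed a graded series. The 95% intervals of TSC22D3 (0.55 to 0.75) and SGK1 (0.45 to 0.65) overlapped, as did those of SGK1 and PER1 (0.34 to 0.53). The intervals of KLF9 and FKBP5 overlapped each other, and the FKBP5 interval overlapped that of FKBP4. The intervals of TSC22D3, SGK1 and PER1 lay wholly above those of NR3C1, FKBP4 and FKBP5. Across the 18 alternative settings the log2 fold change ran from 0.59 to 0.70 for TSC22D3, from 0.50 to 0.61 for SGK1, from 0.40 to 0.48 for PER1 and from 0.21 to 0.34 for KLF9.

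A ratio of counts within a library needs no scaling between libraries, so each member was also set against NR3C1. The ratio of TSC22D3 to NR3C1 counts was 0.522, 0.551 and 0.472 in the shLuc libraries and 0.776, 0.728 and 0.756 in the shKDM6B libraries. For SGK1 it was 0.428, 0.395 and 0.416 in shLuc and 0.566, 0.542 and 0.590 in shKDM6B. For PER1 the group means were 0.562 ± 0.031 and 0.709 ± 0.031, and for FKBP5 0.860 ± 0.018 and 0.935 ± 0.011 (SD, n = 3 each). For these 4 members the ratio was higher in every shKDM6B library than in every shLuc library. With 3 libraries a group the exact two-sided permutation test cannot go below p = 0.1, which is what each of the 4 gave (0.15 adjusted over the 6 ratios). KLF9 overlapped, at 0.179 ± 0.015 and 0.206 ± 0.014 (exact permutation p = 0.2). FKBP4 overlapped too, at 0.971 ± 0.051 and 0.981 ± 0.049 (exact permutation p = 0.8), a log2 difference of 0.016 that turned negative when some libraries were left out. The ratios were added after the members' values had been seen.

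**Figure D3:**
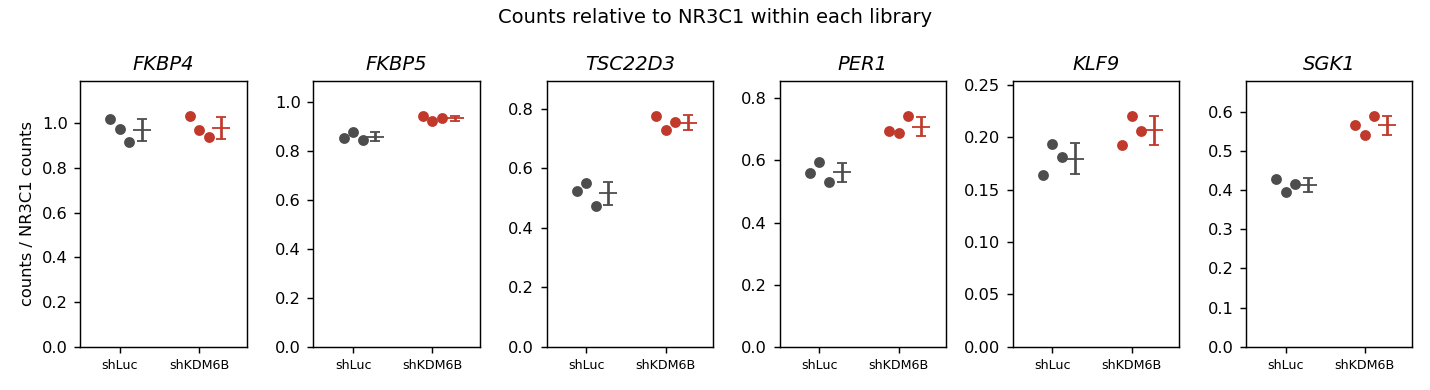
Counts of each other member divided by the NR3C1 counts of the same library (points, with mean and SD, n = 3 per group). The shKDM6B points of FKBP5, TSC22D3, PER1 and SGK1 lie above all shLuc points, and those of FKBP4 (0.939 to 1.03) overlap the shLuc points (0.918 to 1.02).

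Levels can be compared between genes only per length, here CPM per kilobase of all exons in GENCODE 29, which understates genes with long alternative exons. In shLuc, FKBP4 was highest at 37.7 ± 1.8, followed by NR3C1 at 21.9 ± 0.5 and TSC22D3 at 21.7 ± 1.3 CPM per kilobase (SD, n = 3 each). The libraries of NR3C1 and TSC22D3 overlapped, so their order was not resolved. FKBP5 (16.3) and PER1 (16.1) overlapped in the same way, and SGK1 (8.32 ± 0.49) lay above KLF9 (6.97 ± 0.50). In shKDM6B the order was FKBP4 at 40.8 ± 2.6, TSC22D3 at 34.0 ± 1.1, NR3C1 at 23.5 ± 0.5, PER1 at 21.8 ± 0.5, FKBP5 at 18.9 ± 0.4, SGK1 at 12.2 ± 0.3 and KLF9 at 8.59 ± 0.68 CPM per kilobase (SD, n = 3 each). TSC22D3 thus stood clear of the receptor in the shKDM6B libraries, and PER1 clear of FKBP5.

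Related genes were taken from 8 lists of the receptor's wider biology, chosen with earlier results of these data known. Without the members, 138 of their 171 genes were tested, of which 44 were higher and 23 lower, while 71 did not pass. That is 48.6% called, against 39.1% of all genes tested, with a median log2 fold change of 0.027. Among all genes tested 20.1% passed as higher and 18.9% as lower, which is the background for each list below. With scaling from read-poor genes, 46 were higher and 13 lower; over all genes 3127 were then higher and 1904 lower (62.2% of calls higher, against 51.5% before).

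In the chaperone cycle that folds and holds the receptor, 4 of 20 genes were higher and 2 lower, all 20 being tested (median log2 fold change 0.049). The share higher was near that of all genes tested (20.1%), and with scaling from read-poor genes 0 were lower. Beside FKBP5, the ubiquitin ligase STUB1 (0.61), which sends clients of the chaperones to degradation, the HSP40 protein DNAJB1 (0.30) and the kinase co-chaperone CDC37 (0.21) were higher. BAG1, a nucleotide exchange factor of HSP70, was lower (-0.20), and lost its call with scaling from read-poor genes (adjusted p = 0.0839). The HSP90 genes themselves did not pass, HSP90AA1 with -0.050 (adjusted p = 0.478) and HSP90AB1 with -0.024 (adjusted p = 0.801). STUB1 rose from 46.2 ± 2.6 to 70.2 ± 2.5 CPM (SD, n = 3 each; adjusted p = 1.51e-08).

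Coregulators, which the bound receptor recruits to chromatin, moved both ways: 6 of 20 passed as higher, 3 passed as lower and 11 did not pass (median -0.010). With scaling from read-poor genes 1 was lower. The arginine methyltransferase CARM1 (0.45), the p160 coactivator NCOA1 (0.39) and the BAF subunit SMARCC1 (0.28) were higher. HEXIM1, an inhibitor of the elongation factor P-TEFb that is also known to bind the receptor, was lower (-0.31).

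Other genes that glucocorticoids induce in many cell types were split. Of the 40 listed 28 were tested, 9 of them higher and 6 lower, while 13 did not pass (median 0.040). The acyl-CoA synthetase ACSL1 (0.99) and BIRC3 (0.57), an inhibitor of apoptosis, were higher, whereas the insulin receptor substrate IRS2 (-0.67) and the elongation factor ELL2 (-0.65) were lower. DUSP1, a MAP kinase phosphatase and a classic receptor target, was named after its value was seen. It fell from 99.5 ± 25.0 to 38.8 ± 5.4 CPM (SD, n = 3 each, with a log2 fold change of -1.35, SE 0.13 and adjusted p = 1.41e-08), opposite to TSC22D3. The NF-kB inhibitor NFKBIA (0.068, adjusted p = 0.333) and BCL2L11 (-0.022, adjusted p = 0.750), which encodes the death protein BIM, did not pass. Among the 12 not tested, ZBTB16 had 17 counts and PDK4 0 over all 6 libraries.

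Inflammatory genes that glucocorticoids repress were mostly too low to test, 14 of 20, with 0 counts of TNF and IL1B over all libraries and 4 of IL6. Of the 6 tested, 1 was lower, the chemokine CCL5 (-0.83), and 2 were higher, the adhesion molecule ICAM1 (0.54) and the chemokine CXCL10 (0.64). In that list 3 genes were lower without shLuc replicate 3, and 2 without shKDM6B replicate 1, with upper-quartile scaling or with no filter on low counts. CXCL10 was at 0.58 without the 3 libraries richest in keratin counts, where fewer libraries were tested (adjusted p = 0.0513).

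Among other steroid receptors and genes of glucocorticoid metabolism and efflux, 3 of 12 tested were higher and 1 lower (0 to 2 lower with libraries left out in turn). HSD11B2, the enzyme that turns cortisol into inactive cortisone, rose from 3.82 ± 0.44 to 8.19 ± 0.49 CPM (SD, n = 3 each, with a log2 fold change of 1.09, SE 0.17 and adjusted p = 1.69e-05). Its counts were 25, 33 and 39 in the shLuc libraries and 60, 70 and 85 in the shKDM6B libraries. HSD11B1, which runs the reverse reaction and was named after its value was seen, had 4 counts in each shLuc library and 11, 15 and 12 in the shKDM6B libraries (1.58, adjusted p = 0.00254). Without the 3 libraries richest in keratin counts, which left 1 shKDM6B library, HSD11B1 was at 1.42 with a wider error (SE 0.73, against 0.39) and did not pass (adjusted p = 0.148). The efflux pump ABCB1 was lower (-0.68, adjusted p = 0.0186). It kept its size but did not pass by DESeq2 (-0.68, adjusted p = 0.111). In 4 of the 6 fits that left out a library in turn it was between -0.68 and -0.62 and did not pass either (adjusted p from 0.0509 to 0.0693). The mineralocorticoid receptor NR3C2, which binds the same hormones, had a log2 fold change of 0.11 (adjusted p = 0.602).

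PER1 was not alone among the clock genes: 9 of 21 tested were higher, PER1 included, and 2 lower (median 0.13). The shares over all genes tested were 20.1% higher and 18.9% lower. With scaling from read-poor genes 1 was lower. NR1D1, which encodes the repressor REV-ERB alpha, rose from 44.7 ± 0.9 to 69.3 ± 2.6 CPM (SD, n = 3 each, with a log2 fold change of 0.63, SE 0.054 and adjusted p = 4.57e-09). CLOCK (0.54) and the E-box repressor BHLHE40 (0.51) were higher as well. ARNTL, which encodes BMAL1, the partner of CLOCK, fell from 38.6 ± 3.1 to 22.5 ± 2.8 CPM (SD, n = 3 each, with a log2 fold change of -0.77, SE 0.088 and adjusted p = 3.5e-07). The PER1 start window shown above holds an E-box, the letters that CLOCK and ARNTL bind, as do 7.26% of all windows and 1 window of FKBP5. Whether this E-box has a part in the change of PER1 was not tested.

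Close relatives of the members were higher in 7 of 17 tested and lower in 4 (median 0.063); under the alternatives 2 to 7 were higher and 2 to 5 lower. KLF11 (0.52) and FKBP11 (0.33) were higher, and FKBP15 (-0.30) and FKBP8 (-0.20) lower. FKBP8 lost its call with scaling from read-poor genes (adjusted p = 0.126). Among regulators and substrates of SGK1, 7 of 19 were higher and 4 lower (median 0.030). The substrate NDRG1 (0.48), STUB1 and TSC2 (0.38) were higher, and RICTOR, a subunit of the kinase complex that activates SGK1, was lower (-0.49).

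**Figure D4:**
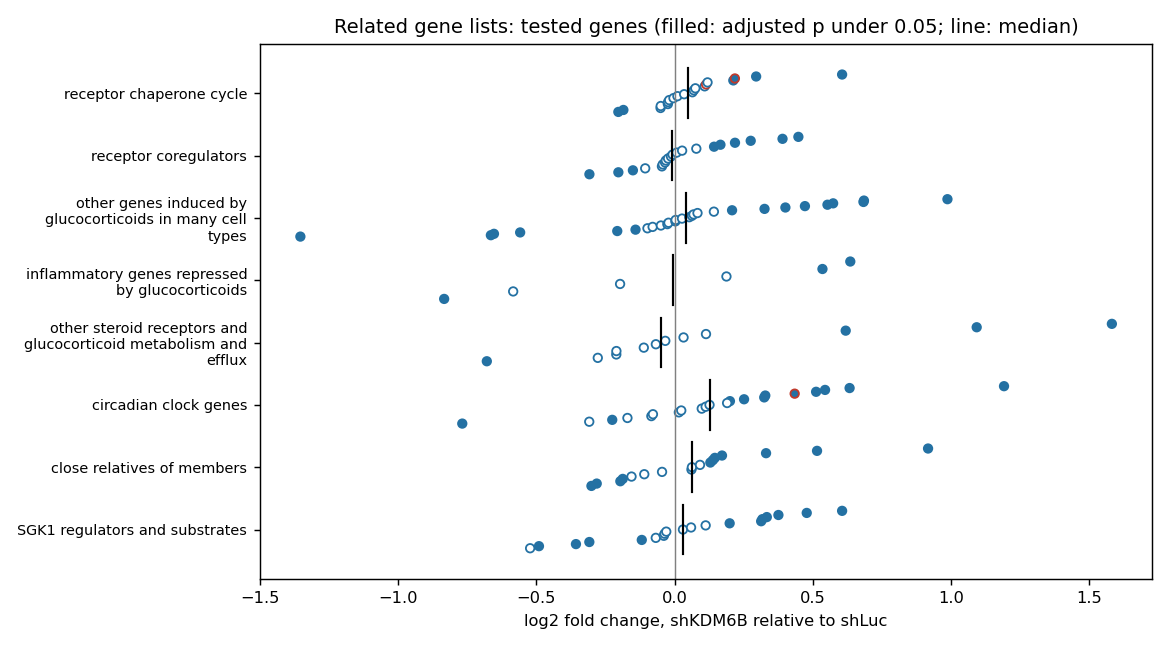
Log2 fold change of every tested gene of the 8 related lists (filled: adjusted p under 0.05; red outline: members; black line: the list's median). The medians lie between -0.051 and 0.13, and most lists hold called genes on either side of 0.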

How the data were processed

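Total RNA of 3 shLuc and 3 shKDM6B libraries was sequenced. Per the submitters' processing notes the authors used STAR, featureCounts and DESeq with GRCh37 (hg19), with versions, annotation, strand setting and handling of duplicates not given in the sources used here. Deposited by the authors were raw counts per gene symbol (56637 per library, with 1 line turned into a date left out) and a table of normalized values, a linear signal; multiplied by 1 factor for each library it returned the counts with an error of at most 7.13e-07.

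Tests on these counts used edgeR 4.0.16 under R 4.3.3 (with filterByExpr by group, TMM scaling, quasi-likelihood test with the group as the only term, all 6 libraries), with Benjamini-Hochberg adjustment over the 13839 genes tested and a threshold of 0.05. Standard errors (SE) and 95% intervals are those implied by the quasi-likelihood statistic. The test was tried on simulated data. Alternatives used DESeq2 1.42.0, limma 3.58.1 (voom, and trend on log2 of the deposited normalized values plus 1), other scaling and filters, a threshold of 0.01, the replicate block and leaving libraries out. Exon lengths (91.1% of tested genes matched) and overlaps come from GENCODE 29 on GRCh38, and start windows from RefSeq; neither was used for counting. Older symbols were matched by RefSeq synonyms.

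The members, lists and tests were chosen with earlier results of these data known. Beside the members and KDM6B, up to 4 called genes per list with the smallest p and at least 2 CPM were named, and others are said to be chosen later or stand for their list. Alternatives added after seeing the data left out the 3 libraries richest in keratin counts, or took the scaling from 3380 genes with under 0.03 counts per base or, per member, from genes within 2-fold of its counts per base. Counting error alone was 2.31 to 5.73% per library for the members. The result of 1 list gene is not reported here.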

Additional observations from a re-analysis of the deposited data

How the results depend on the processing

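TSC22D3, SGK1, PER1 and FKBP5 kept direction and call in all 18 alternatives, and KLF9 in 17; without the 3 libraries richest in keratin counts KLF9 was at 0.21 (adjusted p = 0.122), where fewer libraries were tested. NR3C1 and FKBP4 passed with the replicate block (0.097, adjusted p = 0.0206, and 0.11, adjusted p = 0.0062). Leaving out each library in turn, NR3C1 ran from 0.078 to 0.12, FKBP4 from 0.073 to 0.17, and 5 to 7 members were higher. Whether the replicate numbers pair the libraries is not settled. Same-numbered libraries correlated by 0.35, -0.094 and 0.25 in their deviations from the group means. Differently numbered libraries ran from -0.35 to 0.12, and shLuc replicate 2 did not correlate best with its own number. With the block 3166 genes were higher and 3052 lower, against 2783 and 2622. With scaling from read-poor genes 13 list genes were lower, against 23, and the calls of the members stayed. Under that scaling the median of all genes was 0.042, and the SE of BAG1 was 0.072, against 0.041. The part of either in the lost calls was not tested. With scaling from genes of like counts per base the members ran from 0.082 (NR3C1) to 0.64 (TSC22D3), with the same calls. The ratio of FKBP4 to NR3C1 had a log2 difference of -0.024 to 0.051 with libraries left out in turn (-0.023 without shKDM6B replicate 1) and of -0.012 without the keratin-rich libraries. Some genes that stand for their lists and did not pass changed sign with a library left out: HSP90AB1 ran from -0.080 to 0.054 (0.047 without shKDM6B replicate 3), HSP90AA1 from -0.087 to 0.0044, BCL2L11 from -0.072 to 0.022 and NR3C2 from -0.16 to 0.26. With scaling from read-poor genes HSP90AB1 was at 0.025 and BCL2L11 at 0.028. Without the keratin-rich libraries NR3C2 was at 0.47 (adjusted p = 0.0205), in a fit with 1 shKDM6B library that is taken to vary as the shLuc libraries do. The cause of these shifts was not tested. Too few counts kept 33 list genes from the test, and some of them, such as TNF and PDK4, had 0 counts in every library.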

Other observations

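Among 10150 genes with at least 10 CPM, those whose log2 level followed NR3C1 most closely over the 6 libraries were BUD31 (Pearson r = 0.994), CTNNAL1 (0.991), NPLOC4 (0.991), APOL2 (0.990) and GTPBP4 (0.989). The 6 libraries share the group difference, and these values describe a likeness of pattern only. The correlation of NR3C1 with the other members ran from 0.731 for FKBP4 to 0.921 for FKBP5.

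The spread of some members within a group fell below that of independent counting. The smallest was that of FKBP5, with a coefficient of variation of 0.249% over the 3 shLuc libraries, where counting error alone gives 2.62%. A spread taken from 3 libraries is itself uncertain, and its difference from counting error was not tested. FKBP4 showed the opposite, 6.36% over the shKDM6B libraries against 2.34% from counting.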
